A study of Caenorhabditis elegans with 12 samples.

Results

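The transcripts of 10 Argonaute genes of *C. elegans* were followed through 4 genotypes of dissected adult germline: *hrde-1*, *nrde-3*, *alg-1*, *alg-2*, *ppw-1*, *ppw-2*, *csr-1*, *prg-1*, *wago-1* and *ergo-1*. They were chosen by name, as genes of the small RNA pathways, at a time when earlier results of these data were known. Of these 10 genes, 9 had a probe set that the array annotation gives to that gene alone, out of 17085 genes with such a probe set on the array. The exception was *ppw-1*, whose probe set is also annotated to *sago-2*, another Argonaute gene. Germlines were dissected from hermaphrodites a day after the L4 stage and cut to run from the mitotic tip through late pachytene. The groups were N2 as wild type, a *lin-54(n3423)* mutant, a *mes-4(ok2326)* mutant and the double mutant that carries both deletion alleles, with 3 biological replicates of each and 12 arrays in all. All 3 mutant groups descended from heterozygous mothers (M+Z-), so the early germline of each had received maternal product of the mutated gene. MES-4 is a histone methyltransferase that marks genes expressed in the germline, and LIN-54 is a DNA-binding subunit of DRM, a transcription factor complex. The study found both activating and repressing effects of each protein. The study asked how the 2 proteins oppose each other in germline gene expression, and the same comparisons were made here for the Argonaute genes.

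Argonaute proteins carry a short RNA that guides them to transcripts of matching sequence, and nematodes have an unusually large family of them. ALG-1 and ALG-2 bind microRNAs, PRG-1 is the Piwi protein that binds piRNAs, and ERGO-1 binds a class of endogenous small interfering RNAs that act upstream of a second round of small RNA synthesis. The worm-specific Argonautes then bind the secondary small RNAs: WAGO-1, PPW-1 and PPW-2 in germ cells, CSR-1 on transcripts that germ cells express, HRDE-1 in germ cell nuclei, where it is needed for silencing to be inherited, and NRDE-3 in the nuclei of mostly somatic cells. The *alg-1* and *nrde-3* genes lie on the X chromosome, *alg-2* on II, *hrde-1* on III, *csr-1* on IV, *ergo-1* on V, and *ppw-1*, *ppw-2*, *prg-1* and *wago-1* on I. All levels below are log2 probe set values in the order of replicates 1, 2 and 3, and levels of different probe sets are not compared with each other, since each probe set has its own response.

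The targeted genes were read first as a check of the labels. The *lin-54* probe set lay at 10.80, 10.78 and 10.86 in wild type and at 10.77, 10.69 and 10.88 in *mes-4*, but at 6.40, 7.76 and 6.32 in *lin-54* and at 6.81, 6.65 and 6.33 in the double mutant. Both *mes-4* probe sets, which can still read a truncated transcript, were lower in *mes-4* than in wild type by 0.73 and 0.74 (limma, q = 0.00101 and q = 0.00528), whereas the double mutant did not pass against wild type (-0.35 and -0.34, q = 0.0588 and q = 0.176). The double mutant was higher than the *mes-4* mutant on both, by 0.38 (q = 0.0310, groups not overlapping) and 0.41 (q = 0.0643). Where these probe sets lie relative to the *ok2326* deletion is not known here, so they check the *mes-4* label only in part. The median of 10 germline markers lay between 10.48 and 11.09 on all 12 arrays. Of these 10 only *syp-1* passed, rising in *lin-54* against wild type and in the double mutant against *mes-4* and against wild type. The median of 28 sperm markers was 6.33 to 6.45 in wild type and 6.19 to 6.42 in *mes-4*, but 6.90 to 9.67 in *lin-54* and 7.45 to 9.75 in the double mutant, with replicate 2 lowest in both. Of these 28 markers 23 are major sperm protein genes, so the median mainly reads that family. Among the other sperm markers only *gsp-3* passed in any comparison, and *spe-9* read 6.18 to 6.74 over the 12 arrays. In *lin-54* and the double mutant the median of 7 oocyte markers was lower, at 11.68 to 11.88 and 11.64 to 11.80 against 12.03 to 12.15 in wild type. Of 8 markers of the sheath and somatic gonad, *inx-8* and *tbh-1* fell with the loss of LIN-54 and the other 6 passed the test nowhere, and no marker of intestine, muscle or neurons passed. The intestine marker *vit-2* varied within genotypes, at 10.68, 8.45 and 6.96 in *mes-4* and 9.07, 9.33 and 6.32 in *lin-54*. Sperm markers, most of them major sperm protein genes, and oocyte markers therefore differed between arrays with and without LIN-54. The part of germ cell types in the Argonaute values was not tested. In such bulk samples, fewer cells of a type and less RNA per cell cannot be told apart.

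Losing MES-4 raised 2 of the 9 Argonaute genes, losing LIN-54 lowered 1, and the step from the *mes-4* mutant to the double mutant lowered 5. A gene was called when the q-value of its most significant probe set was at or below 0.05 (limma, Storey q over all probe sets of the comparison). In *mes-4* against wild type *alg-2* and *nrde-3* rose, where 4.04% of all genes rose and 1.95% fell. In *lin-54* against wild type *alg-1* fell, where 3.47% of all genes fell and 2.58% rose. In the double mutant against *mes-4*, *hrde-1*, *nrde-3*, *alg-1*, *alg-2* and *ergo-1* fell, where 5.36% of all genes fell and 2.41% rose. From *lin-54* to the double mutant *alg-2* rose and *hrde-1* fell, where 1.79% of all genes rose and 1.14% fell. Of the 9 genes *hrde-1* alone was called in the double mutant against wild type, and it fell, where 2.85% of all genes fell and 2.14% rose. These comparisons share arrays, the double mutant arrays serving in 3 of them, so they are not independent of each other. The *ppw-2*, *csr-1*, *prg-1* and *wago-1* genes passed in none of the 5.

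The direction of the 9 genes is described by their medians. The median log2 fold change of the 9 was 0.05 in *mes-4* against wild type (all genes -0.05), -0.29 in *lin-54* against wild type (all genes 0.06), and -0.49 in the double mutant against *mes-4* (all genes 0.05). All 9 lay below 0 in the latter pair, against 37.4% and 38.6% of all genes. These shares of all genes depend on the normalization. With arrays centred on the autosomal median, the all-gene medians of this pair were -0.03 and 0.01. Against *lin-54* the double mutant had a median of -0.01 for the 9 (all genes -0.06), with 5 of them below 0. Against wild type the double mutant had a median of -0.34 (all genes -0.00), with 7 of the 9 below 0.

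**Figure D1:**
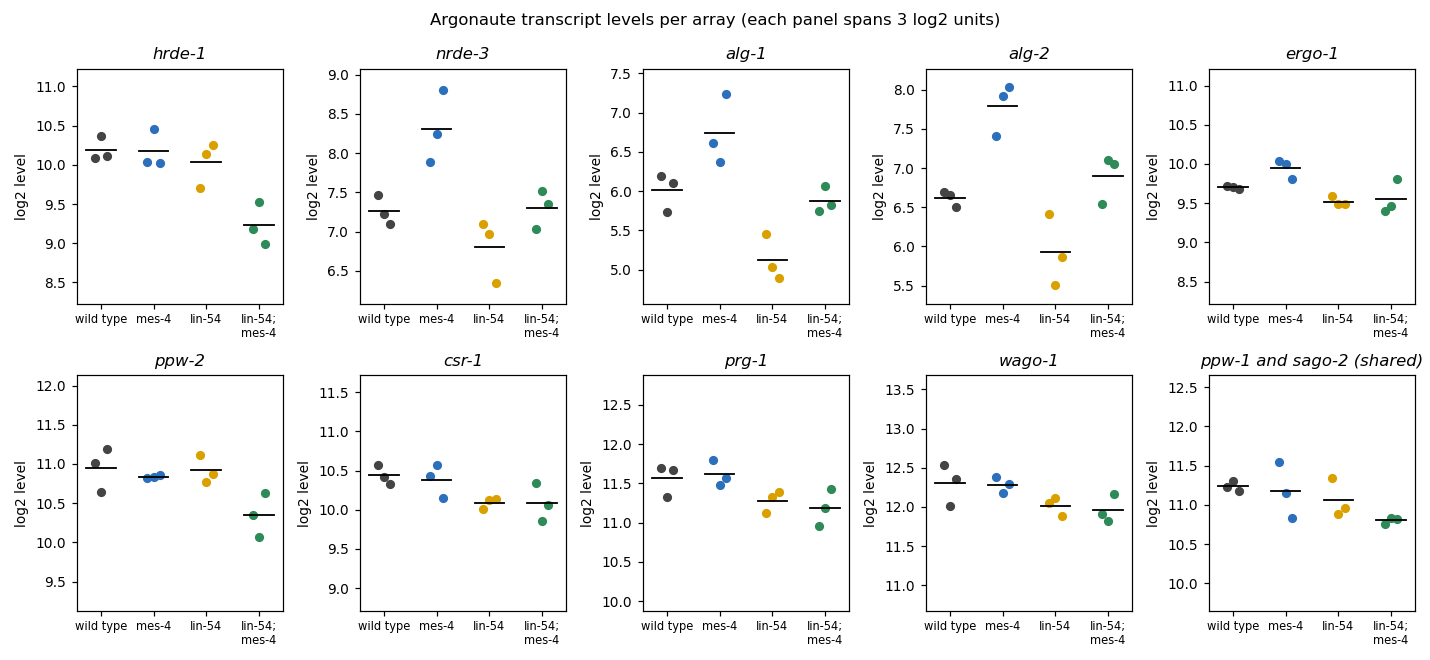
Log2 transcript level (vertical axis) of each Argonaute gene on every array, by genotype; points are the 3 replicates and bars their mean, and every panel spans the same range. For genes with several probe sets the one with the most calls is shown, and the last panel is the probe set shared by *ppw-1* and *sago-2*. The 3 double mutant values of *hrde-1* lie below all others, and *nrde-3*, *alg-1* and *alg-2* are highest in *mes-4*.

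**Figure D2:**
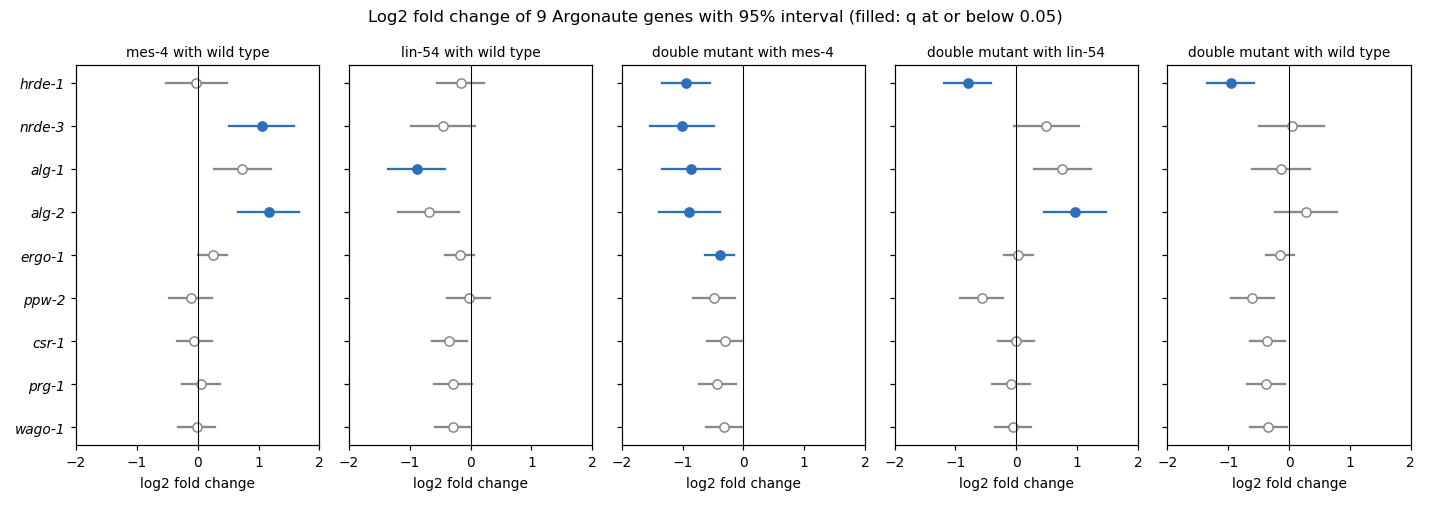
Log2 fold change (horizontal axis) with its 95% interval for 9 Argonaute genes in 5 comparisons, each gene by its most significant probe set in that comparison; filled points passed q at or below 0.05. All 5 filled points of the double mutant against *mes-4* lie below 0, and *hrde-1* is filled in all 3 comparisons of the double mutant.

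Of the nuclear Argonautes, *hrde-1* was lower in the double mutant and passed the test in neither single mutant. Its probe set 187346_at read 10.09, 10.37 and 10.12 in wild type, 10.04, 10.46 and 10.03 in *mes-4*, 9.71, 10.14 and 10.25 in *lin-54*, and 9.19, 9.52 and 8.99 in the double mutant. The double mutant arrays all lay below the 9 others, which overlapped between genotypes. Against wild type the double mutant was lower by a log2 fold change of -0.96 (SE 0.18, 1.94-fold, q = 0.00935), and against *mes-4* by -0.94 (SE 0.18, q = 0.00808). Against *lin-54* the value was -0.80 (SE 0.18, q = 0.0292). Neither single mutant passed, with -0.01 in *mes-4* (95% interval -0.40 to 0.37, q = 0.804) and -0.16 in *lin-54* (95% interval -0.55 to 0.23, q = 0.402). In order of mean level, wild type (10.19), *mes-4* (10.18) and *lin-54* (10.03) did not differ beyond their spread, and the double mutant (9.23) stood below them.

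The drop in the double mutant thus exceeded the sum of the changes in the single mutants on the log2 scale, but the test of that excess did not pass over all genes. The interaction of both mutations was -0.78 for *hrde-1* (SE 0.25, unadjusted p = 0.00905 by limma, q = 0.874). For the interaction 0.0234% of all genes passed upward and 0.0117% downward, which was 6 genes in all, and none of the 9 Argonaute genes was among them. Over the 9 genes the median interaction was -0.21, with 8 of the 9 below 0, against -0.02 and 54.3% for all genes.

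The other probe sets of *hrde-1* gave the same direction with smaller values, neither past the threshold. On 174604_at the double mutant read 9.27, 9.99 and 8.88 against 10.002, 10.23 and 10.10 in wild type, a log2 fold change of -0.73 (SE 0.23, q = 0.0993). On 171903_x_at, a probe set of a type that can also match other transcripts, it was -0.35 (SE 0.15, q = 0.238). On all 3 probe sets replicate 2 was the highest of the double mutant arrays, and that array also had the lowest sperm marker median of its genotype (7.45, against 9.75 and 9.27). The calls against wild type and against *mes-4* were kept in all 21 alternative analyses. The call against *lin-54* was lost with all probe sets of the gene averaged (q = 0.101), with only the 2 genotypes in the model (q = 0.0810), and without *lin-54* replicate 2 (q = 0.108) or 3 (q = 0.149) or double mutant replicate 1 (q = 0.0849) or 3 (q = 0.125).

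**Figure D3:**
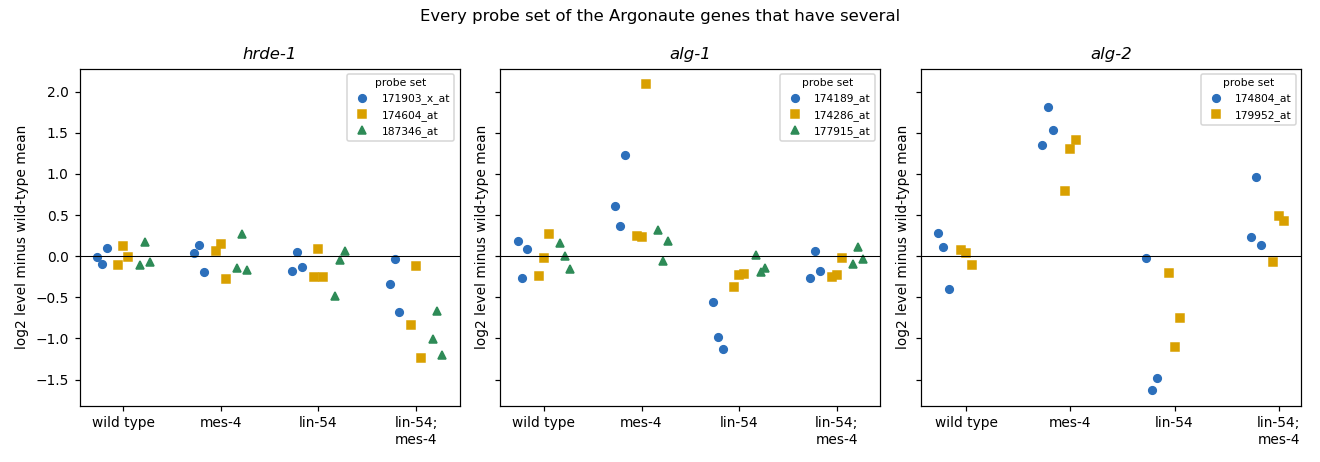
Log2 level minus the wild-type mean of the same probe set (vertical axis) for each array, by genotype, for every probe set of *hrde-1*, *alg-1* and *alg-2*; symbols mark probe sets. The probe sets of *hrde-1* and of *alg-2* move together to different extents, and *alg-1* has a probe set, 177915_at, that stays near 0 and another, 174286_at, with a single *mes-4* array far above the rest.

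The X-linked *nrde-3* gene, which encodes the other nuclear Argonaute of the set, rose in *mes-4* germlines, and its double mutant arrays overlapped wild type. Its probe set read 7.47, 7.22 and 7.09 in wild type, 7.88, 8.24 and 8.81 in *mes-4*, 7.10, 6.97 and 6.35 in *lin-54*, and 7.03, 7.52 and 7.35 in the double mutant. The *mes-4* arrays lay above all 9 others. The log2 fold change was 1.05 in *mes-4* against wild type (SE 0.24, 2.07-fold, q = 0.0243) and -1.01 in the double mutant against *mes-4* (SE 0.24, q = 0.0245). Between the double mutant and wild type it was 0.04 (95% interval -0.49 to 0.57, q = 0.837), and the remaining values, -0.45 in *lin-54* against wild type (q = 0.197) and 0.50 in the double mutant against *lin-54* (q = 0.276), did not pass. In order of mean level *mes-4* (8.31) came first, and the others, the double mutant (7.30), wild type (7.26) and *lin-54* (6.81), did not differ beyond their spread.

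Among X-linked genes as a whole 17.7% rose in *mes-4* and 10.96% fell from *mes-4* to the double mutant. The probe set of *nrde-3* is of a type that can match several transcripts, so a contribution of a related gene cannot be told apart. The same holds for the only probe sets of *ergo-1*, *ppw-2* and *prg-1*, and for those of *vsra-1* and some other pathway genes below. The rise in *mes-4* did not pass without wild type replicate 2 (q = 0.0899) or 3 (q = 0.107) or *mes-4* replicate 2 (q = 0.0560) or 3 (q = 0.0816). The fall from *mes-4* did not pass without *mes-4* replicate 2 (q = 0.0501) or 3 (q = 0.0771) or double mutant replicate 1 (q = 0.0965) or 3 (q = 0.0675), nor with only the 2 genotypes in the model (q = 0.0645).

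The microRNA Argonaute genes *alg-1* and *alg-2* encode closely related proteins with overlapping roles, one on the X chromosome and the other on an autosome. Both were highest in *mes-4*, lowest in *lin-54* and in between in the double mutant. For *alg-2*, 179952_at read 6.69, 6.65 and 6.51 in wild type, 7.41, 7.92 and 8.03 in *mes-4*, 6.42, 5.51 and 5.87 in *lin-54*, and 6.54, 7.11 and 7.05 in the double mutant. The *mes-4* arrays lay above and the *lin-54* arrays below all others, while wild type and double mutant overlapped. Replicates 2 and 3 of *lin-54* also lay below the median of all probe sets (5.89), where changes are compressed. The log2 fold change was 1.17 in *mes-4* against wild type (SE 0.23, 2.25-fold, q = 0.0112), -0.89 in the double mutant against *mes-4* (SE 0.23, q = 0.0330) and 0.97 in the double mutant against *lin-54* (SE 0.23, q = 0.0403). In *lin-54* against wild type it was -0.69 (SE 0.23, q = 0.0796) and in the double mutant against wild type 0.28 (95% interval -0.22 to 0.79, q = 0.601). By mean level the order was *mes-4* (7.79), double mutant (6.90), wild type (6.62) and *lin-54* (5.93), where the middle pair did not differ beyond its spread and wild type and *lin-54* did not differ by the test.

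The second *alg-2* probe set, 174804_at, gave the same order with larger values. It read 9.32, 9.16 and 8.64 in wild type, 10.40, 10.86 and 10.58 in *mes-4*, 9.02, 7.41 and 7.56 in *lin-54*, and 9.27, 10.01 and 9.18 in the double mutant. The log2 fold change in *mes-4* against wild type was 1.57 (SE 0.38, 2.97-fold, q = 0.0289). Replicate 1 of *lin-54* was the highest of its genotype on both probe sets, and it also had the highest sperm marker median (9.67, against 6.90 and 8.55). In the double mutant it was the other way: replicate 2 was highest on both probe sets and had the lowest sperm marker median (7.45, against 9.75 and 9.27). Without *lin-54* replicate 1 *alg-2* fell in *lin-54* against wild type (log2 fold change -1.56 on 174804_at, q = 0.00563). The rise in *mes-4* was kept in 20 of 21 alternatives and did not pass without wild type replicate 3 (q = 0.0571).

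The other calls of *alg-2* depended on more of the arrays. The fall from *mes-4* to the double mutant did not pass without *mes-4* replicate 2 (q = 0.0843) or 3 (q = 0.112) or double mutant replicate 1 (q = 0.127) or 3 (q = 0.0684). The rise from *lin-54* to the double mutant was kept in 11 of 21 alternatives, and its size depended on the probe set read. It went from 0.97 to 2.00 without *lin-54* replicate 1 (q = 0.00124) and to 1.49 with a replicate block (q = 0.0471), both on 174804_at. The call was lost without wild type replicate 1 (q = 0.0639), 2 (q = 0.0625) or 3 (q = 0.0616), *lin-54* replicate 2 (q = 0.138) or 3 (q = 0.161), *mes-4* replicate 2 (q = 0.0561), or double mutant replicate 2 (q = 0.115) or 3 (1.64 on 174804_at, q = 0.0982). It was also lost with the Benjamini-Hochberg adjustment (q = 0.0561) and with only the 2 genotypes in the model (q = 0.114).

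For *alg-1*, 174189_at read 6.19, 5.74 and 6.10 in wild type, 6.62, 6.37 and 7.24 in *mes-4*, 5.45, 5.03 and 4.89 in *lin-54*, and 5.74, 6.07 and 5.83 in the double mutant. Here too the *mes-4* arrays were above and the *lin-54* arrays below all the others. The *lin-54* arrays also lay below the median of all probe sets (5.89), and changes of probe sets this low are compressed. The log2 fold change was -0.89 in *lin-54* against wild type (SE 0.22, 1.85-fold, q = 0.0308) and -0.86 in the double mutant against *mes-4* (SE 0.22, q = 0.0286). In *mes-4* against wild type it was 0.73 (SE 0.22, q = 0.0693) and in the double mutant against *lin-54* 0.76 (SE 0.22, q = 0.0819), neither past the threshold. The double mutant and wild type overlapped, with a log2 fold change of -0.13 (95% interval -0.60 to 0.34, q = 0.769). By mean level the order was *mes-4* (6.74), wild type (6.01), double mutant (5.88) and *lin-54* (5.12), and no neighbours in it differed by the test. Among X-linked genes 4.29% fell in *lin-54*.

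The *alg-1* probe sets disagreed more than those of the other genes. On 177915_at no genotype differed from another, with all 12 arrays between 6.12 and 6.63 and log2 fold changes from -0.15 to 0.15. On 174286_at the *mes-4* arrays read 5.41, 5.39 and 7.26, where replicate 3 stood far above the 11 others (4.79 to 5.43). Those 11 arrays lay below the median of all probe sets. With the 3 probe sets averaged the fall in *lin-54* was 0.42 and did not pass (log2 fold change -0.42, q = 0.141). It also did not pass with the Benjamini-Hochberg adjustment (q = 0.0511) nor on leaving out wild type replicate 1 (q = 0.115) or 3 (q = 0.110) or *lin-54* replicate 2 (q = 0.0899) or 3 (q = 0.136). The fall from *mes-4* to the double mutant did not pass without *mes-4* replicate 1 (q = 0.0510) or 3 (q = 0.0811) or double mutant replicate 1 (q = 0.101) or 3 (q = 0.0889), nor with only the 2 genotypes in the model (q = 0.0748).

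The *ergo-1* transcript, for the Argonaute of primary endogenous small interfering RNAs, varied little. Its probe set read 9.72, 9.70 and 9.69 in wild type, 10.04, 10.004 and 9.80 in *mes-4*, 9.59, 9.49 and 9.49 in *lin-54*, and 9.40, 9.46 and 9.81 in the double mutant. The double mutant fell against *mes-4* by a log2 fold change of -0.39 (SE 0.11, 1.31-fold, q = 0.0407), although replicate 3 of the double mutant lay above replicate 3 of *mes-4*. No other comparison passed, with 0.25 in *mes-4* against wild type (q = 0.241) and -0.18 in *lin-54* against wild type (q = 0.227). The order of mean levels was *mes-4* (9.95), wild type (9.70), double mutant (9.56) and *lin-54* (9.52), in which no neighbours differed by the test.

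The call of *ergo-1* was the least stable of the 11 calls and was kept in 7 of 20 alternatives. It was lost without any 1 of the wild type replicates (q = 0.0581, 0.0592 and 0.0594), without *lin-54* replicate 2 (q = 0.0573) or 3 (q = 0.0538), without *mes-4* replicate 1 (q = 0.121) or 2 (q = 0.0947), and without double mutant replicate 1 (q = 0.152) or 2 (q = 0.105). It was also lost with the Benjamini-Hochberg adjustment (q = 0.0598), trended robust variances (q = 0.0615), a replicate block (q = 0.0553) and only the 2 genotypes in the model (q = 0.143).

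Of the germline Argonautes that bind secondary small RNAs, *ppw-2* came nearest to the threshold. It read 11.02, 10.65 and 11.19 in wild type, 10.82, 10.83 and 10.86 in *mes-4*, 11.12, 10.77 and 10.87 in *lin-54*, and 10.35, 10.06 and 10.64 in the double mutant. The 3 double mutant arrays lay below the 9 others. The log2 fold change of the double mutant was -0.60 against wild type (SE 0.16, 1.52-fold, q = 0.0530), -0.57 against *lin-54* (SE 0.16, q = 0.0787) and -0.49 against *mes-4* (SE 0.16, q = 0.0775). In the single mutants it was -0.12 (*mes-4*, q = 0.689) and -0.03 (*lin-54*, q = 0.562). The order of mean levels, wild type (10.95), *lin-54* (10.92), *mes-4* (10.84) and double mutant (10.35), was thus like that of *hrde-1* in having the double mutant last, without a difference past the threshold between any neighbours. The value against wild type passed in 8 of the 20 alternatives that could be run, among them the leaving out of wild type replicate 2 (q = 0.0262), *lin-54* replicate 1 (q = 0.0456) or double mutant replicate 3 (q = 0.0329).

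Transcripts of *csr-1*, *prg-1* and *wago-1* differed by less than the test could call in every comparison. For *csr-1* the arrays read 10.57, 10.42 and 10.33 in wild type, 10.44, 10.57 and 10.15 in *mes-4*, 10.004, 10.13 and 10.14 in *lin-54*, and 10.34, 9.86 and 10.06 in the double mutant. The log2 fold change of *csr-1* was -0.35 in *lin-54* against wild type (95% interval -0.64 to -0.05, q = 0.107) and -0.06 in *mes-4* against wild type (95% interval -0.35 to 0.24, q = 0.752). For the double mutant against wild type it was -0.35 (95% interval -0.65 to -0.06, q = 0.180). The *lin-54* arrays of *csr-1* all lay below wild type, and the double mutant overlapped both.

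The Piwi gene *prg-1* read 11.70, 11.33 and 11.68 in wild type, 11.80, 11.48 and 11.57 in *mes-4*, 11.13, 11.33 and 11.38 in *lin-54*, and 10.96, 11.19 and 11.42 in the double mutant. Its log2 fold change was 0.05 in *mes-4* against wild type (95% interval -0.26 to 0.36, q = 0.762), -0.29 in *lin-54* against wild type (95% interval -0.60 to 0.02, q = 0.173) and -0.43 in the double mutant against *mes-4* (95% interval -0.74 to -0.12, q = 0.0782). The double mutant and *mes-4* arrays did not overlap, whereas each overlapped wild type.

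For *wago-1* the values were 12.54, 12.01 and 12.35 in wild type, 12.38, 12.17 and 12.29 in *mes-4*, 12.05, 12.11 and 11.88 in *lin-54*, and 11.91, 11.82 and 12.16 in the double mutant. The *wago-1* log2 fold change was -0.02 in *mes-4* against wild type (95% interval -0.32 to 0.28, q = 0.797), -0.28 in *lin-54* against wild type (95% interval -0.58 to 0.02, q = 0.168) and -0.34 in the double mutant against wild type (95% interval -0.63 to -0.04, q = 0.209). For these 3 genes, wild type and *mes-4* had the highest mean levels and *lin-54* and the double mutant the lowest. Their intervals against wild type exclude a fall of 1 log2 unit or more.

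The probe set that *ppw-1* shares with *sago-2* cannot tell the genes apart. It read 11.23, 11.30 and 11.17 in wild type, 11.55, 11.16 and 10.84 in *mes-4*, 11.34, 10.88 and 10.96 in *lin-54*, and 10.75, 10.84 and 10.82 in the double mutant. The double mutant was the tightest group and lay below all wild type and *lin-54* arrays. Its log2 fold change against wild type was -0.44 (SE 0.16, q = 0.169), and no comparison of this probe set passed.

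Beyond these genes, 12 other Argonaute genes had a probe set of their own. The largest values were those of *vsra-1*, an Argonaute gene on chromosome I. It read 8.74, 8.67 and 8.19 in wild type, 9.996, 9.96 and 10.18 in *mes-4*, 8.22, 7.35 and 7.03 in *lin-54*, and 8.61, 9.02 and 8.53 in the double mutant. Its *mes-4* arrays stood above all others, and wild type and the double mutant overlapped, the same order of genotypes as for *alg-2*. The *vsra-1* transcript rose in *mes-4* (log2 fold change 1.51, SE 0.24, q = 0.00543), fell in *lin-54* (-0.997, q = 0.0388), fell from *mes-4* to the double mutant (-1.32, q = 0.0100) and rose from *lin-54* to the double mutant (1.19, q = 0.0273). The rise in *mes-4* and the fall from *mes-4* were kept in all 20 alternatives that could be run. The fall in *lin-54* was lost without any 1 wild type replicate or without *lin-54* replicate 2 or 3 (q up to 0.156). The rise from *lin-54* was lost without *lin-54* replicate 2 or 3 or any 1 double mutant replicate (q up to 0.126). Both were also lost with only the 2 compared genotypes in the model, and the fall in *lin-54* with the Benjamini-Hochberg adjustment too.

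In *lin-54* against wild type 3 more of the 12 fell, which with *vsra-1* makes 4, where 3.47% of all genes fell. These were *rde-1*, the Argonaute that starts the response to foreign double-stranded RNA (-0.72, q = 0.0332), *alg-5*, a germline microRNA Argonaute (-0.43, q = 0.0357), and *wago-2* (-0.98, q = 0.0214), which the annotation used here lists as a pseudogene. All 3 calls were lost on leaving out replicate 1 or 3 of wild type or replicate 3 of *lin-54*, *rde-1* and *alg-5* also on leaving out *lin-54* replicate 2, and *rde-1* wild type replicate 2, with q up to 0.141, 0.137 and 0.102. The *rde-1* and *alg-5* calls were also lost with the Benjamini-Hochberg adjustment. The *alg-5* probe sets disagreed: without wild type replicate 2 the value was -0.87 (on another probe set, q = 0.0475), while the remaining probe set had means of 9.96 in wild type and 9.86 in *lin-54*. The remaining 8 passed in no comparison. They included *alg-3* and *alg-4*, the Argonautes of spermatogenesis, whose probe sets read 6.35 to 6.97 (*alg-3*) and 4.69 to 5.44, 4.54 to 4.87 and 5.86 to 6.19 (*alg-4*) over the 12 arrays. The median of all probe sets was 5.89, and *alg-3* lay above it on all 12 arrays. The *alg-4* probe sets lay below or near it, and changes of probe sets this low are compressed. On the same arrays 12 of the 28 sperm markers rose in *lin-54* against wild type, 21 from *mes-4* to the double mutant and 17 in the double mutant against wild type. Of these, 11, 20 and 16 were major sperm protein genes. Of all genes 2.58%, 2.41% and 2.14% rose in the same comparisons. Also among the 8 was *sago-1*, an Argonaute of secondary small RNAs in somatic cells.

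**Figure D4:**
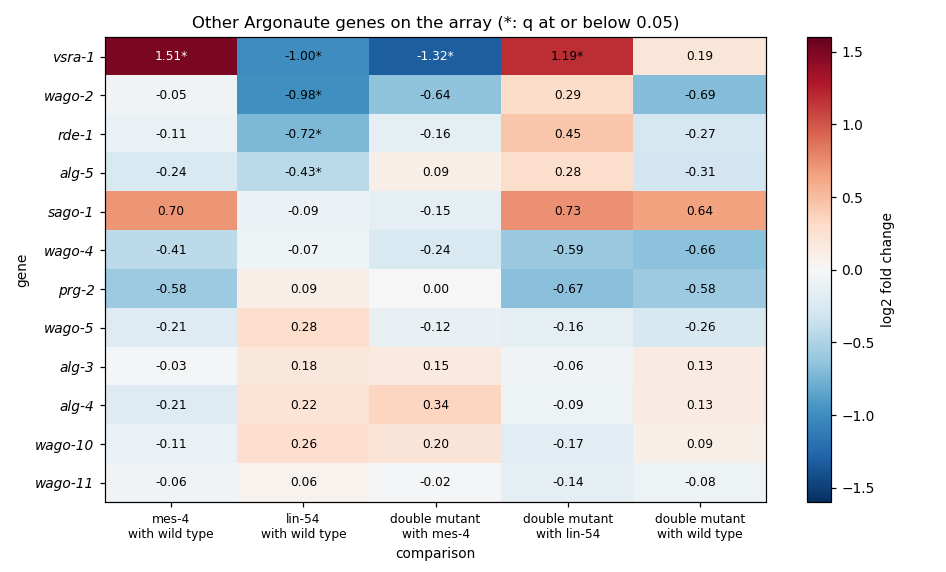
Log2 fold change (colour and printed value) of the 12 other Argonaute genes with a probe set of their own (rows) in 5 comparisons (columns), each gene by its most significant probe set in that comparison; an asterisk marks q at or below 0.05. The *vsra-1* row carries 4 asterisks, 3 other genes carry an asterisk in *lin-54* against wild type, and 8 rows carry none.

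The other 73 genes of the small RNA pathways that could be read (including the 12 above) moved in both directions. In *mes-4* against wild type 4 of them rose and 5 fell, beside 4.04% and 1.95% of all genes. In *lin-54* against wild type 1 rose and 9 fell, beside 2.58% and 3.47% of all genes. From *mes-4* to the double mutant 5 rose and 4 fell, beside 2.41% and 5.36%. Each comparison thus had calls in both directions among these genes. From *lin-54* to the double mutant 2 rose and 1 fell, beside 1.79% and 1.14%, and against wild type the double mutant had 1 up and 3 down, beside 2.14% and 2.85%. None passed for the interaction. Their median log2 fold changes were -0.11, -0.06, 0.05, 0.01 and -0.08 in the 5 comparisons, where all genes had -0.05, 0.06, 0.05, -0.06 and -0.00.

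Of the 12 ERI and double-stranded RNA factors measured, 3 fell in *mes-4* against wild type, none rose and 9 did not pass. Of all genes 1.95% fell and 4.04% rose in that comparison. The *eri-6* and *eri-7* genes, whose transcripts are joined to make a helicase of the ERGO-1 pathway, had log2 fold changes of -1.08 (SE 0.18, q = 0.00459) and -1.24 (SE 0.23, q = 0.00835), and *eri-5*, a Tudor protein that works with the RNA-dependent RNA polymerase RRF-3, had -0.64 (SE 0.10, q = 0.00298). The *eri-6* probe set read 8.33, 8.56 and 8.91 in wild type, 7.65, 7.13 and 7.78 in *mes-4*, 8.72, 8.93 and 8.77 in *lin-54*, and 8.25, 8.44 and 8.61 in the double mutant. Its *mes-4* arrays lay below all others, and the double mutant rose from *mes-4* by 0.91 (q = 0.0100). In contrast *eri-7* remained low in the double mutant, at 6.57, 6.89 and 6.44 against 7.57, 7.52 and 8.32 in wild type (-1.17, q = 0.0131). All 3 falls in *mes-4* were kept in every alternative that could be run, and the *eri-7* call in the double mutant was lost without double mutant replicate 3 (q = 0.0537).

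Also called in *mes-4* was *ain-1*, which encodes the X-linked partner protein of the microRNA Argonautes. The *ain-1* transcript rose by 1.00 (SE 0.21, q = 0.0150), a call lost without wild type replicate 2 or 3 (q up to 0.0750). Without *mes-4* replicate 3 the value was 0.53, on another probe set (q = 0.00765). In *lin-54*, those named by p were *tost-1*, *rsd-6*, *rrf-3* and *rrf-1*. The *tost-1* gene, listed here with the piRNA factors, rose by 0.39 (q = 0.0187). The *rsd-6*, *rrf-3* and *rrf-1* genes fell (-0.37, -0.55 and -0.59, with q = 0.0202, 0.0269 and 0.0272). The *rsd-6* gene encodes a Tudor protein of systemic RNA interference, and *rrf-3* and *rrf-1* encode the RNA-dependent RNA polymerases that make primary and secondary small interfering RNAs. These falls did not pass on leaving out replicate 1 or 3 of wild type or replicate 3 of *lin-54*, nor *rrf-3* and *rrf-1* on leaving out *lin-54* replicate 2, nor *rrf-1* wild type replicate 2 (q up to 0.0950, 0.123 and 0.09999). With its probe sets averaged *rrf-1* had -0.38 (q = 0.0389). The call of *tost-1* was lost on leaving out wild type replicate 3 or *lin-54* replicate 2 (q up to 0.0737).

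From *mes-4* to the double mutant the 4 non-Argonaute genes with the smallest p were *tost-1* (0.51, q = 0.00394), *rde-12* (-0.72, q = 0.00554), *eri-6* and *tofu-2* (0.64, q = 0.0105). Of these, *rde-12* encodes a helicase needed for RNA interference, and *tofu-2* is a piRNA factor. The *rde-12* transcript read 9.94, 9.73 and 10.06 in wild type, 10.06, 10.01 and 9.74 in *mes-4*, 9.54, 9.42 and 9.38 in *lin-54*, and 9.37, 8.99 and 9.31 in the double mutant. It fell in the double mutant against wild type too (-0.69, q = 0.00870), and this call and that against *mes-4* were kept in all 21 alternatives. In *lin-54* against wild type *rde-12* also fell (-0.46, q = 0.0447), a call kept in 11 of 21 alternatives. In the double mutant against *lin-54* the calls besides *vsra-1* were *smut-1* (0.40, q = 0.0324), a helicase of the Mutator group, and *eri-5* (-0.61, q = 0.00465). Against wild type the double mutant also had *mut-7*, an exonuclease of the Mutator group (-0.37, q = 0.0179), and *tost-1* (0.32, q = 0.0482). Of these, *eri-5* was kept in all 21 alternatives, *smut-1* in 13, *mut-7* in 16 and *tost-1* in 7.

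The genes whose patterns over the 12 arrays were most like those of the called Argonautes were named by Pearson's r, as a description over arrays that share genotypes. For *hrde-1* these were *hyl-1* (r = 0.883), *bath-41* (0.869) and F40H3.6 (0.869). For *nrde-3* they were *gmeb-1* (0.989) on chromosome II, and *C35B8.3* (0.979) and *sel-12* (0.975), the latter pair X-linked. For *alg-2* they were *F10D7.5* (0.985) and *W06D11.3* (0.981), both X-linked, and *Y37D8A.4* (0.975) on chromosome III. For *ergo-1* they were *F52B11.2* (0.915), *gst-1* (0.893) and *uba-1* (0.892). The rule took the probe set with the highest level, which for *alg-1* was 177915_at, where no genotype differed; the nearest were *nfm-1* (0.925), *H18N23.2* (0.888) and *eri-12* (0.879).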

How the data were processed

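Germline RNA was amplified linearly in a single round and hybridized to the Affymetrix *C. elegans* GeneChip, 1 array per sample, 12 in all. The deposited values are log2 levels that the authors made with the affy package by robust multichip averaging after quantile normalization (versions are not given in the sources used here). They ranged from 3.05 to 14.6, array medians from 5.81 to 5.93, and correlations within a genotype from 0.989 to 0.996. They were not normalized again. The number of arrays limits the precision, and a probe set near background reads a compressed change.

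Genes were named from the platform annotation, with symbols and chromosomes from RefSeq (WBcel235). Of 22548 probe sets other than 77 controls, 20701 matched 1 gene, 887 named several genes, 895 named none and 65 named a gene not matched to RefSeq. In limma 3.58.1 under R 4.3.3, the 12 arrays entered a model that gives each genotype its own mean, and 5 comparisons and the interaction were tested. Storey q-values were taken over all probe sets other than controls, using a spline of 3 degrees of freedom over lambda values from 0 to 0.9 spaced by 0.05. Each gene was read from its probe set of smallest p, and the threshold for a call was q at or below 0.05. The fits were tested on simulated data. The methods of the study guided this design. Genes other than the 10 were named by rule: each other Argonaute, up to 4 called genes per comparison by p from a list of pathway genes, and the 3 most like in pattern by r. The members and lists were chosen with earlier results of these data known. Replicate numbers come from the labels. The 18 pairs of equally numbered samples had correlations of deviations from -0.07 to 0.43, 9 of them above 0.1. The main model did not take the numbers to pair samples, and the labels do not tell whether they do. No genome or sequence was used, and a search of promoters for motifs was not run. The 21 alternatives changed the adjustment, the samples in the model, the probe sets, the normalization, the variances or the block, or left out 1 array.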

Additional observations from a re-analysis of the deposited data

How the results depend on the processing

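Of the 1101 alternative values of the Argonaute fold changes, 1016 kept their direction and side of the threshold or moved by less than their error, 54 lost a call, 17 gained one, 14 without a call moved by more than their error, and none of the called values changed sign. Of the 11 calls, 2 (*hrde-1* in the double mutant against *mes-4* and against wild type) were kept in all alternatives. The number of Argonaute genes called in the double mutant against *lin-54* went from 2 to 1 with the Benjamini-Hochberg adjustment, to 1 with gene means of probe sets and to 0 with a model of just the compared groups. In *lin-54* against wild type it went from 1 to 0 with the Benjamini-Hochberg adjustment and with gene means of probe sets. In the double mutant against wild type it went from 1 to 2 (*ppw-2* added) with gene means, with q over the most significant probe sets, with only probe sets above the median level, with trended robust variances and with the replicate block. In the double mutant against *mes-4* it went from 5 to 2 with a model of just the compared groups and from 5 to 3 without shared probe sets, and to 7 with only probe sets above the median level (*ppw-2*, q = 0.0484, and *prg-1*, q = 0.0498, added). In *mes-4* against wild type it went from 2 to 1 without shared probe sets, where 5 of the 9 genes could be tested, and to 3 above the median level (*alg-1* added, q = 0.0441). Leaving out 1 array gave 0 to 2 calls in *mes-4* against wild type, 0 to 2 in *lin-54* against wild type, 1 to 5 in the double mutant against *mes-4*, 0 to 3 against *lin-54*, 1 to 2 against wild type, and 0 for the interaction. The causes of these changes were not tested, except that the fits with fewer arrays or groups have fewer degrees of freedom. The interaction could not be run with only the compared groups.

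The replicate block uses the replicate numbers, and whether equal numbers pair the samples is not settled here. In 11 of 18 pairs of equally numbered samples the best correlation was with the same number. With the block, the calls in the double mutant against *mes-4* were 5 (*ppw-2* in, q = 0.0334, and *ergo-1* out, q = 0.0553). They were 3 against *lin-54* (*ppw-2* added, q = 0.0332) and 2 against wild type (*ppw-2* added, q = 0.0193). With arrays centred on the autosomal median the Argonaute calls were the same, but the share of all called genes that were up went from 42.6% to 17.5% in *lin-54* against wild type (441 up and 593 down to 168 and 792) and from 61.0% to 78.7% in the double mutant against *lin-54* (305 and 195 to 362 and 98). The counts of other pathway genes called ranged over the alternatives from 4 to 12, 0 to 13, 4 to 11, 1 to 4 and 2 to 9 in the order of the comparisons in the report. Outliers were not tested, since each group has 3 arrays.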
